A study of Mus musculus with 4 samples.

Results

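The constitutive proteasome genes are described here in mouse macrophages: the core particle, the regulatory particle, the activators, the inhibitor and the assembly factors. Members were all genes whose symbol begins with Psma to Psmg followed by a digit and that have at least 1 protein-coding transcript, without the inducible catalytic subunits Psmb8, Psmb9 and Psmb10. The rule used no measured value. It found 47 of 55536 genes, out of 54 matching symbols; the 3 inducible subunits and 4 pseudogenes (Psmb5-ps, Psmb6-ps, Psmb6-ps2 and Psmb7-ps2) were left out. The members were 8 alpha and 8 beta genes of the 20S core, 6 ATPase and 14 non-ATPase genes of the 19S particle, 5 activators, 1 inhibitor and 4 assembly factors. The last member, Psmc3ip, encodes a cofactor of meiotic recombination and was taken in by its symbol only.

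Polyadenylated RNA was sequenced from whole-cell extracts of macrophages grown from bone marrow of C57BL/6J mice. The 4 libraries formed 1 group, biological replicates 1 to 4, and all had been treated for 60 minutes with 100 ng/mL of a stimulus that the labels call lipid A in one field and lipoprotein A in another. Unstimulated cells were not analysed here, so nothing below measures a response to the stimulus. All libraries carried the same donor label, the sex and age of the mice were not collected, and no label says that the replicates were separate animals or cultures, so the p-values below measure only the spread between these libraries, which may be technical.

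The proteasome is the main protease of the cytosol and nucleus and degrades proteins that carry ubiquitin chains. Its barrel-shaped 20S core is built from outer alpha rings, which gate the entrance, and inner beta rings, where some of the subunits carry the active sites. The 19S particle caps the barrel, binds ubiquitin, removes it and unfolds the substrate with a ring of ATPases. In macrophages and other antigen-presenting cells, interferon signalling can replace the constitutive catalytic subunits by inducible ones and raise the PA28 activator, which changes the peptides made for class I antigen presentation.

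Gene counts summed to between 26917288 and 39438391 per library. The deposited text lists gave 6 read files for replicates 1 and 2 and 4 for replicates 3 and 4, and ribosomal RNA genes held between 3.43% and 12.4% of counts. All 8 macrophage markers checked reached 1 TPM in every library, with summed levels between 19637 and 35202 TPM, while B cell markers summed to 0.98 to 2.91 TPM and T and NK cell markers to 0.04 to 0.73 TPM. Markers of neutrophils and their precursors summed to 198, 108, 728 and 69 TPM in replicates 1 to 4. Cell division genes stood highest in replicate 1, at a summed 1144 TPM, against 275, 530 and 341 TPM in replicates 2, 3 and 4. Pcna alone gave 653, 174, 377 and 252 TPM of these sums in replicates 1 to 4. In bulk libraries such as these, fewer cells of a type and less RNA per cell cannot be told apart.

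The members were abundant and broadly present. Of the 47 members, 45 reached 1 TPM (a level corrected for transcript length and library size, which allows genes to be compared) in every library, or 95.7%, against 43.8% of 22028 protein-coding genes. Mean levels of 100 TPM or more were found for 15 members (31.9%), against 5.25% of protein-coding genes. The median of the members' mean levels was 74.6 TPM. Both exceptions to 1 TPM are known from other settings: Psmb11, the catalytic subunit of the thymus form, was listed at 0 in every library, and Psmc3ip stood at 7.02, 0.46, 2.62 and 1.36 TPM in replicates 1 to 4. Together the members held 0.348%, 0.255%, 0.311% and 0.274% of all gene counts in replicates 1, 2, 3 and 4, which was most in replicate 1 and least in replicate 2.

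**Figure D1:**
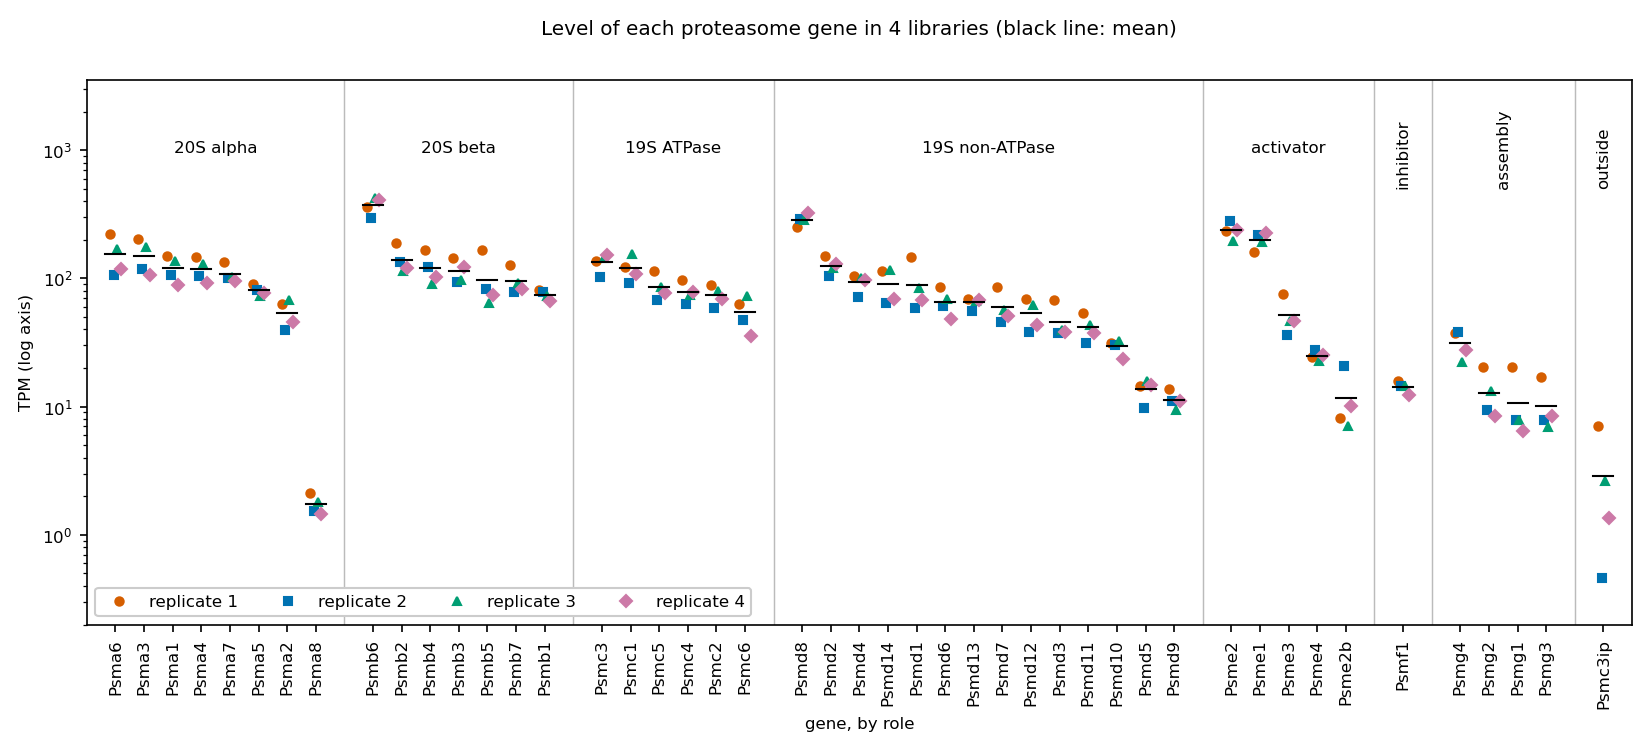
TPM of each member with counts (log axis) in replicates 1 to 4, by role, with the mean as a black line; Psmb11, listed at 0, is not drawn. Most 20S and 19S genes lie between 40 and 160 TPM, Psmb6 and Psmd8 stand above the others of their groups, and the assembly factors Psmg1, Psmg2 and Psmg3 lie near 10 TPM.

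Alpha subunits form the outer rings of the core, and the 7 alpha genes used outside the testis had mean levels between 54.0 and 155 TPM. Psma6 led the group with 223, 107, 170 and 119 TPM in replicates 1 to 4 (mean 155 ± 52.9, SD, n = 4). Replicates 1 and 3 were high and replicates 2 and 4 low. Psma3 had 202, 118, 175 and 106 TPM, with the same split of the libraries (mean 150.3 ± 45.5). Psma1 (120.1 ± 27.9 TPM), Psma4 (119 ± 25.2 TPM) and Psma7 (108 ± 17.1 TPM) followed. Psma5 was steadier, at 91.1, 81.7, 72.8 and 76.5 TPM (mean 80.5 ± 7.95). The lowest of the 7 was Psma2, with 63.5, 39.4, 67.3 and 45.9 TPM (mean 54.0 ± 13.5). Psma8, which replaces an alpha subunit in the testis, was nearly silent at 2.12, 1.53, 1.81 and 1.45 TPM, and its counts did not differ between libraries beyond counting noise (adjusted p = 0.56, chi-square test with edgeR library sizes). Scaled by library size, the counts of all 8 alpha genes were highest in replicate 1. On the TPM scale Psma2 was highest in replicate 3 instead.

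Beta subunits carry the proteolytic sites. Psmb6, the subunit with caspase-like activity, was the most abundant member of all, with 358, 297, 426 and 410.2 TPM in replicates 1 to 4 (mean 373 ± 58.2, SD, n = 4), and it ranked 337th among protein-coding genes. Unlike most members it was highest in replicates 3 and 4. Psmb5, the subunit with chymotrypsin-like activity, had 168, 81.9, 64.0 and 74.1 TPM (mean 96.95 ± 47.9). Replicate 1 stood apart from the other 3 libraries, and the highest scaled count was 2.47 times the lowest (adjusted p = 1.18e-170, chi-square test with edgeR library sizes). Psmb7, the subunit with trypsin-like activity, had 126, 78.5, 91.3 and 82.3 TPM (mean 94.6 ± 21.7), again with replicate 1 highest. Among the non-catalytic beta subunits, Psmb2 averaged 139 ± 33.3 TPM, Psmb4 averaged 120.2 ± 32.8 TPM and Psmb3 averaged 114 ± 23.3 TPM. Psmb1 was the lowest of the beta genes that were detected and the steadiest, at 80.7, 77.9, 73.0 and 66.9 TPM (mean 74.6 ± 6.09). Psmb11 had no count in any library, which allows at most 0.0761 to 0.111 CPM (counts scaled to library size; 3 counts set the limit). That limit covers counting error only. The deposited upper bounds of its TPM were 0.515, 0.462, 0.395 and 0.380 in replicates 1 to 4. A separate deposited quantification gave Psmb11 a mean of 0.037 TPM, so the value of 0 holds for the gene tables only.

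Each catalytic subunit has an inducible counterpart, so the levels of both were set side by side within each library. Psmb6 was 9.96, 5.74, 13.3 and 10.2 times the level of its counterpart Psmb9 in replicates 1 to 4. It was higher in 4 of 4 libraries, with a mean log2 ratio of 3.23 ± 0.51 (SD). Psmb5 was 0.823, 0.378, 0.433 and 0.358 times the level of its counterpart Psmb8. It was lower in 4 of 4 libraries, with a mean log2 ratio of -1.09 ± 0.55. Psmb7 was 1.75, 0.599, 1.78 and 0.851 times the level of its counterpart Psmb10. That ratio lay above 1 in replicates 1 and 3 and below 1 in replicates 2 and 4 (mean log2 ratio 0.17 ± 0.78). With 4 libraries an exact 2-sided sign-flip permutation test cannot give a p below 1/8. It gave this smallest value for Psmb6 over Psmb9 and for Psmb5 over Psmb8 and 0.75 for Psmb7 over Psmb10 (exact permutation test; 0.188, 0.188 and 0.75 after adjustment over the 3 pairs). These ratios use all transcripts of a gene, and transcripts without a protein-coding label held 23.8% ± 1.73 of the TPM of Psmb8 and 25.8% ± 8.39 of that of Psmb10, against 0% for Psmb5 and 0.136% for Psmb7. On protein-coding transcripts only, an alternative chosen after seeing the data, Psmb5 was 1.09, 0.509, 0.568 and 0.457 times the level of Psmb8, so it was higher in replicate 1 and lower in the other 3 libraries. On the same basis Psmb6 was 9.44, 5.49, 14.3 and 10.03 times the level of Psmb9, and Psmb7 was 2.56, 0.893, 2.34 and 0.997 times that of Psmb10. The difference between the ratios of the 3 pairs was not tested.

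The inducible subunits themselves moved between libraries in another order than most members. Psmb8 had 204, 217, 148 and 207 TPM, Psmb9 had 35.9, 51.8, 32.1 and 40.3 TPM and Psmb10 had 71.9, 131, 51.3 and 96.7 TPM in replicates 1 to 4. Replicate 2 held the highest level of each, and replicate 3 the lowest. The summed level of the 3 inducible subunits was 0.478, 0.873, 0.397 and 0.607 times that of Psmb5, Psmb6 and Psmb7 together, so the inducible share was largest in replicate 2 and smallest in replicate 3.

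**Figure D2:**
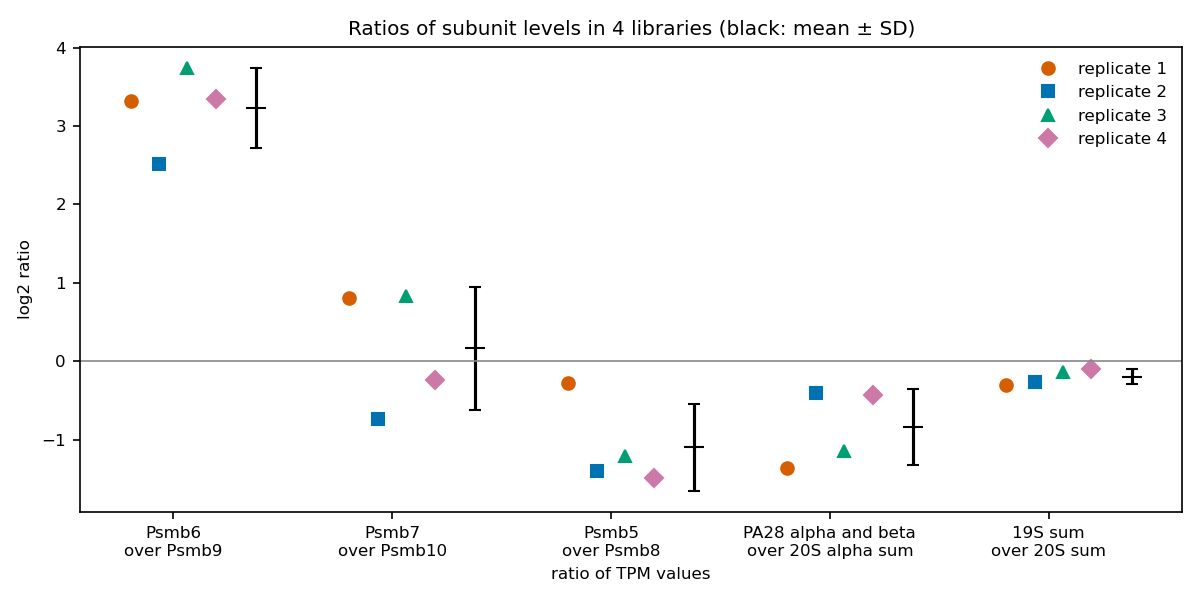
Log2 ratios of TPM in replicates 1 to 4, with the mean ± SD in black, for the 3 catalytic pairs, the PA28 genes over the 20S alpha genes, and the 19S genes over the 20S genes. Over all transcripts of each gene, Psmb6 over Psmb9 lies above 0 and Psmb5 over Psmb8 below 0 in every library, while Psmb7 over Psmb10 lies on both sides.

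Upstream sequences are shown for Psmb6, the member with the highest level, and for Psmb5, the core gene with the widest spread. NRF1 (Nfe2l1) is known to bind antioxidant response elements when proteasome activity falls short. RefSeq windows were matched by symbol for 39 of 47 members, 42 windows in all. The 250 bases before the start were searched on both strands for TGACNNNGC (antioxidant response element), CCAAT (the motif of NF-Y) and GAAANNGAA (core of the interferon-stimulated response element); overlaps between motifs were allowed. The windows below are from GRCm38.p6, 5′ to 3′ along the gene, with each match in capitals; Psmb5 lies at chr14:54617996-54618245 on the minus strand and Psmb6 at chr11:70525107-70525356 on the plus strand.
Psmb5: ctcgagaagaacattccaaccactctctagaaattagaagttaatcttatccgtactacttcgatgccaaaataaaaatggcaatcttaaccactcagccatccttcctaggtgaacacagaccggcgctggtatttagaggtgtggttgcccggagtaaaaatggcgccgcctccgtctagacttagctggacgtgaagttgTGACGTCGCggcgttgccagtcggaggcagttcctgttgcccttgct
Psmb6: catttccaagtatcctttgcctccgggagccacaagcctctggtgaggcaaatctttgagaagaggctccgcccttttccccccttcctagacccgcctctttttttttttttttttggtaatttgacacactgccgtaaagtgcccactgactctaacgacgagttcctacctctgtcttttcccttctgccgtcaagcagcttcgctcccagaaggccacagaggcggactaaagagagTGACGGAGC
The capitals mark TGACNNNGC in Psmb5, starting 47 bases before the start, and in Psmb6, starting 9 bases before it.

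Over the members the motifs were about as frequent as over all windows. TGACNNNGC was found in 5 of 42 member windows (11.9%; Psmb5, Psmb6, Psmc6, Psmd12 and Psmd9), against 10.2% of all 32851 windows. CCAAT was found in 14 of 42 (33.3%), against 33.8% of all windows, and GAAANNGAA in 3 of 42 (7.14%; Psmb3, Psmd4 and Psmd9), against 7.13%. A match is a description of the letters, and a window without one says only that these letters are not in it.

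The 19S particle contains a ring of 6 ATPases, encoded by Psmc1 to Psmc6, that unfolds substrates. Psmc3 was the highest, with 137, 102, 144 and 151 TPM in replicates 1 to 4 (mean 134 ± 21.8, SD, n = 4). Replicate 2 was the lowest and the other 3 libraries were close to each other. Psmc1 averaged 120.0 ± 26.5 TPM, Psmc5 averaged 86.0 ± 19.6 TPM, Psmc4 averaged 78.0 ± 14.1 TPM and Psmc2 averaged 74.2 ± 13.0 TPM. Psmc6 was the lowest, with 63.1, 47.3, 72.9 and 35.2 TPM (mean 54.6 ± 16.7), and it was the only ATPase gene with its lowest scaled count in replicate 4 instead of replicate 2. None of the 6 was called variable, although the scaled counts of Psmc6 spanned 1.94-fold and it was called with libraries scaled by total counts.

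The non-ATPase subunits form the lid and base that recognise and deubiquitinate substrates. Psmd8, a lid subunit, was far above the others, with 252, 288, 287 and 324 TPM in replicates 1 to 4 (mean 288 ± 29.3, SD, n = 4). It was lowest in replicate 1, against the order of most members. Psmd2, a large scaffold of the base, averaged 126 ± 19.02 TPM. Psmd4, a ubiquitin receptor, averaged 93.5 ± 14.9 TPM, and Psmd14, the deubiquitinase of the lid, averaged 90.9 ± 27.8 TPM. Psmd1, the other large scaffold of the base, had 146, 59.1, 84.4 and 67.3 TPM (mean 89.3 ± 39.5). Replicate 1 stood above the rest, and its highest scaled count was 2.10 times the lowest. The lid subunits Psmd6 (65.9 ± 15.8 TPM), Psmd13 (64.9 ± 6.47 TPM), Psmd7 (59.5 ± 17.5 TPM) and Psmd12 (53.3 ± 14.7 TPM) formed a middle range. Psmd3 had 67.9, 37.7, 39.6 and 38.4 TPM (mean 45.9 ± 14.7), so replicates 2, 3 and 4 were nearly equal and replicate 1 was high. Psmd11 was the lowest lid subunit at 41.5 ± 9.33 TPM. The 3 genes of this group that encode assembly chaperones of the 19S base were lower: Psmd10 averaged 29.4 ± 3.96 TPM, Psmd5 averaged 13.7 ± 2.66 TPM, and Psmd9 had 13.8, 11.1, 9.47 and 11.1 TPM (mean 11.4 ± 1.78).

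Subunits that enter the complex in equal number were not equally abundant as transcripts. Among the 14 core genes of the 20S particle used outside the testis and thymus, the highest level was 5.64, 7.55, 6.67 and 8.93 times the lowest in replicates 1 to 4. Psmb6 was the highest in every library, and Psma2 was the lowest in all but replicate 3, where Psmb5 was. Still, 12 or 13 of the 14 genes lay within 2-fold of their median in each library. Among the 17 genes of the 19S particle without chaperones, the highest was 4.72, 9.17, 7.24 and 9.19 times the lowest, with Psmd8 highest in every library. Here 15 or 16 of 17 genes lay within 2-fold of the median. The summed level of the 19S genes was 0.812, 0.834, 0.914 and 0.933 times that of the 20S genes. All these levels use every transcript of a gene. Transcripts without a protein-coding label held 77.6% ± 15.7 (SD) of the TPM of Psma3 and 38.8% ± 13.2 of that of Psmd13. The coding level of Psma3 was therefore lower than the level used here, and the ranges were not recomputed on coding transcripts.

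The PA28 activator, built from Psme1 and Psme2, opens the core without ATP. Psme2 had 234, 279, 194 and 238 TPM in replicates 1 to 4 (mean 236 ± 34.97, SD, n = 4), and Psme1 had 160, 218, 192 and 226 TPM (mean 199 ± 29.7). Psme1 was lowest in replicate 1, the library where most members were highest, and Psme2 was highest in replicate 2. Both together were 0.389, 0.753, 0.451 and 0.741 times the summed level of the 20S alpha genes, so this ratio was higher in replicates 2 and 4 than in replicates 1 and 3. Psme3, which encodes the separate nuclear activator, had 75.6, 36.5, 46.7 and 46.7 TPM (mean 51.4 ± 16.9), with replicate 1 highest and replicate 2 lowest. Relative to the PA28 pair it was 0.192, 0.0734, 0.121 and 0.101. Psme4, which encodes a large nuclear activator, was steady at 24.3, 27.7, 22.8 and 25.3 TPM (mean 25.01 ± 2.06). Psmf1, the proteasome inhibitor, had 15.7, 14.5, 14.4 and 12.4 TPM (mean 14.2 ± 1.38), and its counts did not differ between libraries beyond counting noise (adjusted p = 0.454, chi-square test with edgeR library sizes).

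Psme2b, a single-exon copy of Psme2 at chr11:48945354-48946190 on the minus strand, had 8.15, 20.9, 7.09 and 10.2 TPM (mean 11.6 ± 6.34), with replicate 2 far above the others. It was called variable, with a 2.85-fold range. Psme2 itself lies at chr14:55587441-55591113 on the minus strand (both in GRCm38). The coding sequences of Psme2b and Psme2, of 717 bases each, differ at 5 positions, so they are 99.3% identical. The stretch of 60 coding bases that holds 3 of these positions is shown because it is where reads could be assigned to one gene or the other; the capitals mark the differing bases, and positions 484 to 543 are counted from the first base of the start codon.
Psme2b: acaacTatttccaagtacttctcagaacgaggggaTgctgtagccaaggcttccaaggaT
Psme2: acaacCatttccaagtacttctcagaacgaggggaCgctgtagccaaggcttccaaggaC
Reads that cover none of the 5 positions match the coding sequence of both genes, so the level of Psme2b, at 0.0348, 0.0748, 0.0366 and 0.0427 times that of Psme2, is uncertain. Its ratio to Psme2 was highest in replicate 2.

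The assembly factors Psmg1 to Psmg4 help alpha subunits form a ring, and all 4 lay below every 20S gene of somatic cells by mean level. Psmg4 had 37.2, 38.3, 22.2 and 27.6 TPM in replicates 1 to 4 (mean 31.3 ± 7.71, SD, n = 4), higher in replicates 1 and 2. Psmg2 had 20.4, 9.39, 13.2 and 8.48 TPM (mean 12.9 ± 5.42), Psmg1 had 20.2, 7.82, 7.88 and 6.40 TPM (mean 10.6 ± 6.47) and Psmg3 had 17.1, 7.90, 6.93 and 8.40 TPM (mean 10.1 ± 4.72). In each of these 3 genes replicate 1 was the highest by a wide margin. Their scaled counts spanned 2.26-fold for Psmg2, 2.96-fold for Psmg1 and 2.27-fold for Psmg3. Pomp, which chaperones the beta rings but has a symbol outside the rule, was abundant at 291 ± 58.7 TPM. So the assembly factors did not form one level: Pomp stood beside the highest core genes, and Psmg1, Psmg2 and Psmg3 at the level of the 19S chaperone Psmd9.

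Across the roles, 44 of 46 members with enough counts varied between libraries beyond counting noise, beside 88.6% of all 12626 genes tested. Psma8 and Psmf1 were the exceptions. A count at least 2-fold higher in one library than in another, beyond counting noise, was found for 8 of 46 members (Psma6, Psmb5, Psmd1, Psme2b, Psmg1, Psmg2, Psmg3 and Psmc3ip), beside 33.0% of all genes tested. Among genes that averaged 10 TPM or more it was 7 of 44 members, beside 21.3% of 6681 genes. By role these were 1 of 8 alpha genes, 1 of 7 beta genes tested, 0 of 6 ATPase genes, 1 of 14 non-ATPase genes, 1 of 5 activators, 3 of 4 assembly factors and the 1 gene outside the proteasome. Psmc3ip spanned the widest range, 20.3-fold, at low counts. Its order of libraries was that of the summed level of the cell division genes. The median spread of the members (SD over libraries of the log2(CPM + 1)) was 0.28 log2 units, beside 0.27 over all genes tested, and 24 of 46 members lay above the median of genes of like level. The count of 8 depended on the libraries used: it was 2 without replicate 1 and 5 without replicate 2. Within the pair of replicates 1 and 2 it was again 8. Within the pair of replicates 3 and 4, whose read files were fewer, it was 0, and a smaller share of all genes tested was called there too. The shares of all genes in the other subsets are not given here, so these counts do not set the members apart from other genes.

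**Figure D3:**
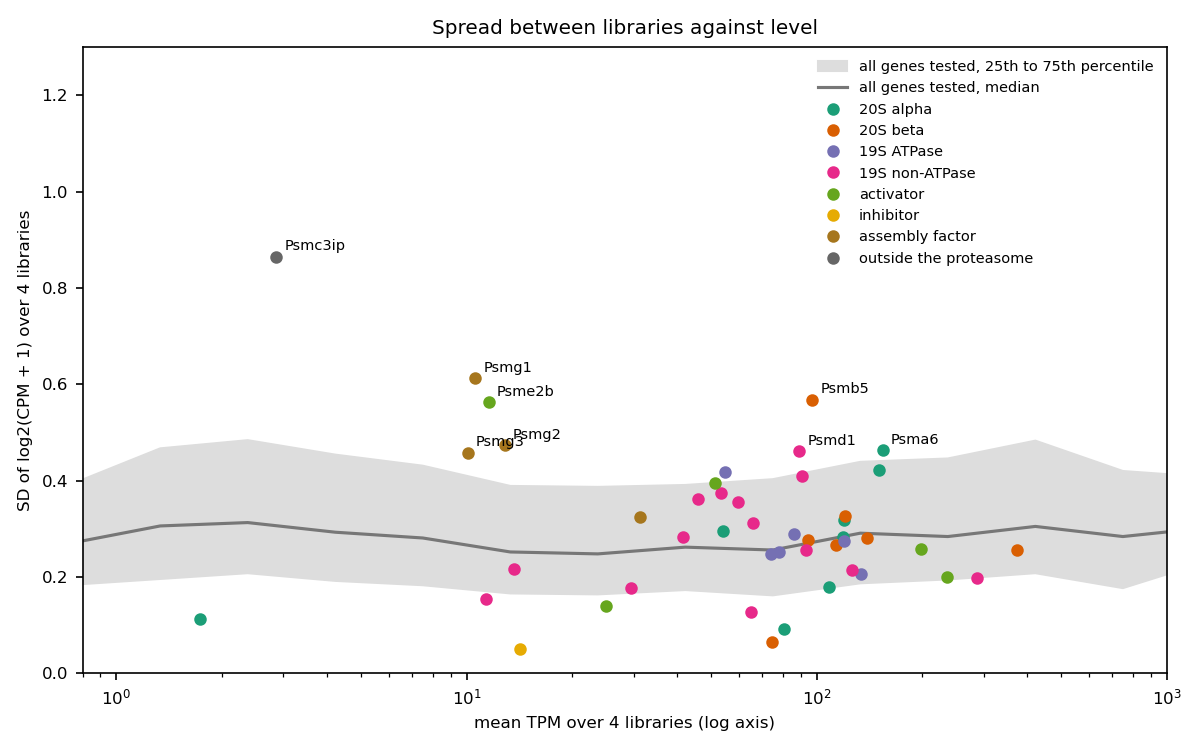
SD over 4 libraries of log2(CPM + 1) against mean TPM (log axis) for the 46 members tested, coloured by role, with the median and the 25th to 75th percentile of all genes tested in grey; members called variable are named. The members scatter on both sides of the grey median, and Psmb5 is the widest of the 20S and 19S genes.

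The direction of this variation was shared by most members. Scaled counts were highest in replicate 1 for 34 of 46 members, against 4515 of 12626 genes tested. They were lowest in replicate 2 for 23 members, against 3208 of the 12626 genes. Over all genes tested, replicate 1 also held the lowest scaled count of 4119 genes, against 2 of 46 members. The median member lay 0.28 log2 units above its own mean in replicate 1, 0.26 below in replicate 2, 0.01 above in replicate 3 and 0.09 below in replicate 4. Over all genes tested these medians were 0.01, -0.01, -0.02 and 0.01 log2 units in replicates 1 to 4. The scaling of the libraries centres the typical gene, so these medians lie near 0 by construction. Of the 31 core 20S and 19S genes of somatic cells, replicate 1 held the highest scaled count of 25 and replicate 2 of 0. The 3 members highest in replicate 2 were all activators, Psme2, Psme4 and Psme2b. As a list, the cell division genes moved the same way and further. Their median deviation was 1.82 log2 units in replicate 1 and -1.05 in replicate 2. Scaled counts were highest in replicate 1 for 9 of 10 of these genes, and in replicate 2 for Mki67. The macrophage markers had median deviations of -0.36, 0.10, -0.17 and 0.17 log2 units in replicates 1 to 4. They summed to 19637, 35202, 20390 and 28238 TPM, most of it Lyz2, at 14541, 28530, 14293 and 21375 TPM. The 8 markers shared no single order: scaled counts were highest in replicate 1 for 1 of them (Itgam), in replicate 2 for 2, in replicate 3 for 2 and in replicate 4 for 3. The part of either list in the members' order was not tested.

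**Figure D4:**
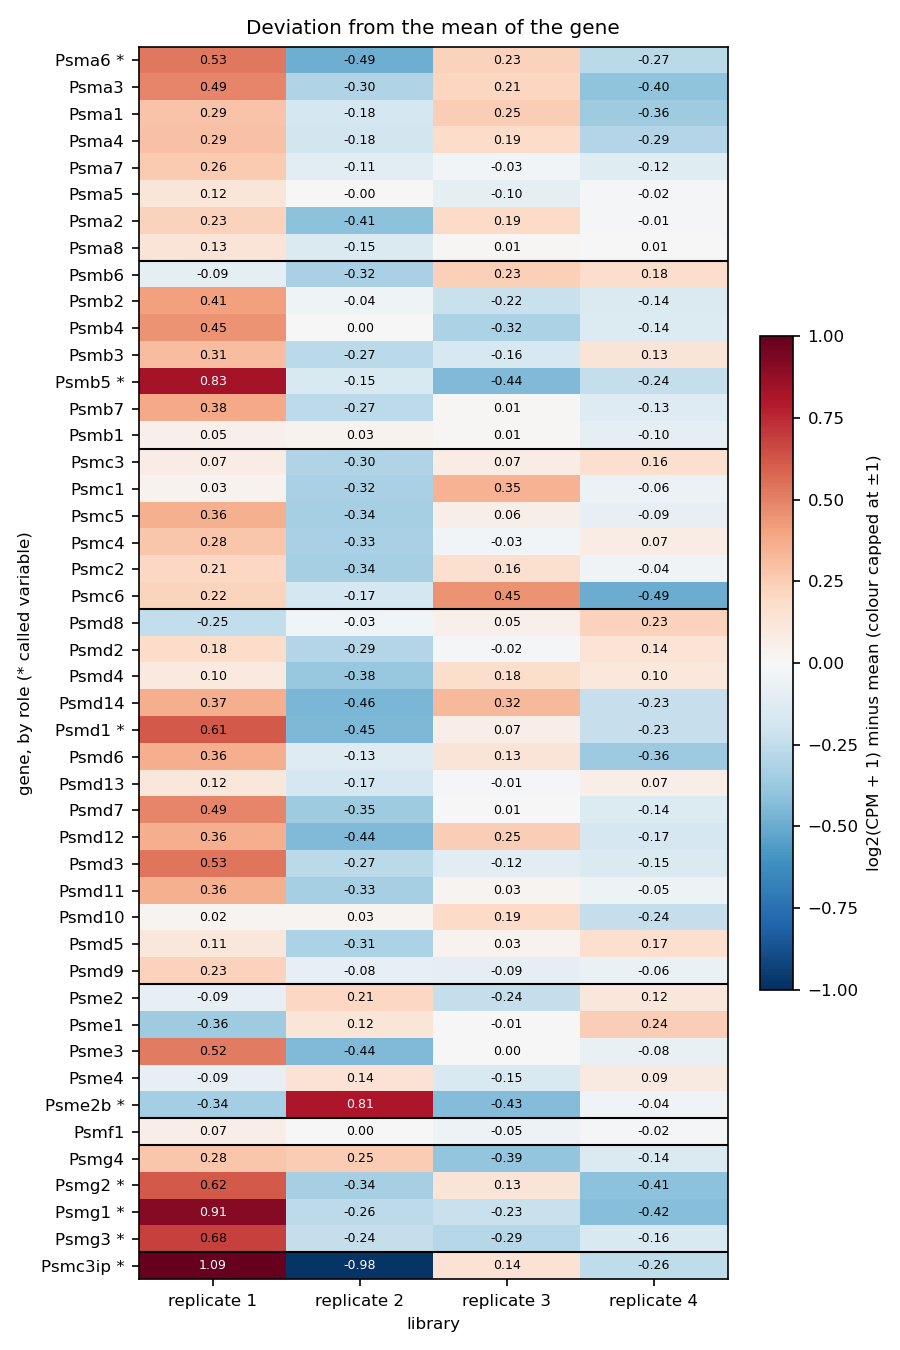
Deviation of log2(CPM + 1) from the gene's own mean in each library for the 46 members tested, by role, with the value in each cell; a star marks members called variable. Replicate 1 is above the mean for most 20S, 19S and assembly genes, while the PA28 genes Psme1 and Psme2 are below it there.

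Most members were read as 1 main transcript. A single transcript held at least 80% of the gene's TPM for 34 of the 46 members with shares, and the median share of transcripts without a protein-coding label was 1.5%. That share reached 20% for 4 members: Psma3, Psma8, Psmc3ip and Psmd13. For Psma3 it was 84.7%, 95.9%, 61.1% and 68.7% in replicates 1 to 4 (mean 77.6% ± 15.7). The transcript labelled as a target of nonsense-mediated decay, Psma3-201, held 43.2% ± 11.9, the retained-intron transcript Psma3-203 held 31.4% ± 5.17, and the coding transcript Psma3-204 held 18.5% ± 16.5. The other deposited transcript table, from a separate quantification, gave Psma3-204 5.98%. In the first table Psma3-204 held 10.2%, 0%, 36.5% and 27.3% in replicates 1 to 4, so the split between transcripts is itself uncertain. The gene level of Psma3 thus cannot be read as the level of its coding transcript. Psmd13, a lid subunit, had a non-coding share of 26.3%, 29.0%, 53.0% and 47.0% (mean 38.8% ± 13.2), most of it in Psmd13-211 at 34.7%, and 46.4% in the other table. Replicates 1 and 2 were lower than replicates 3 and 4. The other 2, Psma8 (21.9% ± 12.6) and Psmc3ip (47.1% ± 40.2), have few counts.

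In several other members a pair of coding transcripts shared the gene's TPM, which is per length, so a short transcript takes a larger share of TPM than of counts. Psmd5 was split between Psmd5-201 (52.3%) and Psmd5-202 (45.8%), Psmf1 between Psmf1-202 (53.6%) and Psmf1-201 (44.9%), Psmc3 between Psmc3-202 (56.9%) and Psmc3-210 (40.9%), and Psmd11 between Psmd11-201 (57.1%) and Psmd11-214 (39.1%). Smaller parts went to Psmg4-201 (37.9% of Psmg4), Psma2-202 (29.3% of Psma2) and Psmd4-201 (26.9% of Psmd4). The share of Psma2-202 was 26.2%, 26.1%, 48.0% and 16.7% in replicates 1 to 4 (SD 13.3). It was 43.4% in the other table, so the split of Psma2 is uncertain. In all, 10 of 46 members had a second transcript at 20% or more.

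**Figure D5:**
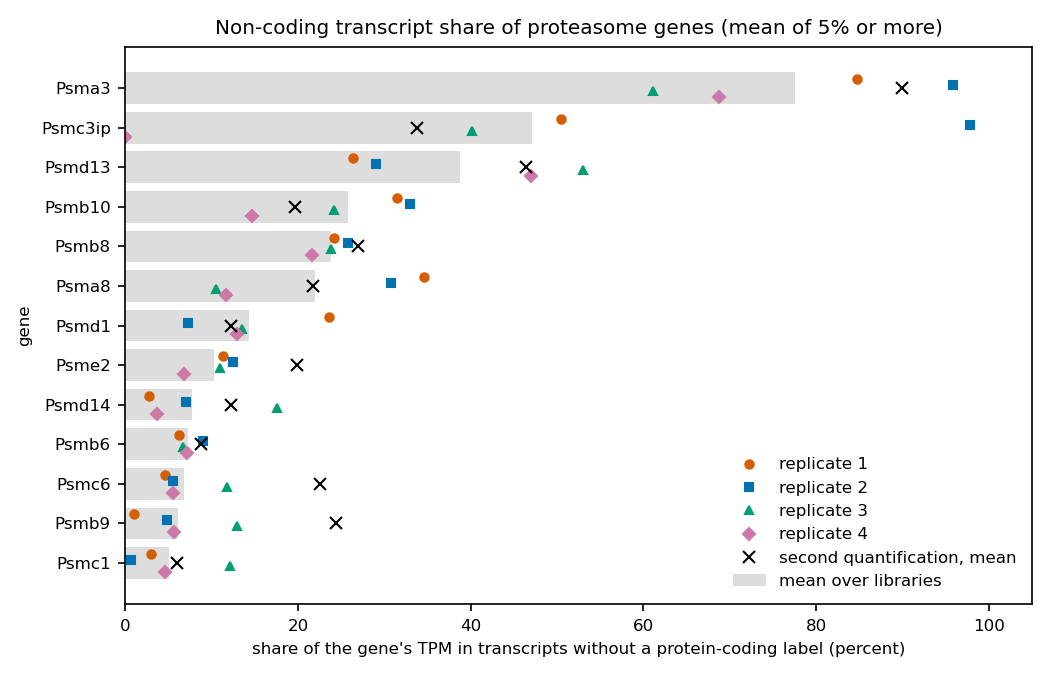
Share of the gene's TPM in transcripts without a protein-coding label, in percent, in replicates 1 to 4 (points), their mean (grey bar) and the mean in the other deposited transcript table (cross), for members and inducible subunits with a mean of 5% or more. Psma3 and Psmd13 are high in every library, and Psmc3ip ranges over nearly the whole axis.

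Some members share sequence or position with other genes. At 95% identity over at least 50% of the main transcript, 10 members had at least 1 copy among other annotated transcripts. The copies held more than 1% of the member's own count for 4 of them: Psma3 (2.37%), Psmd11 (6.98%, the copy A730017L22Rik), Psme2 (4.26%, the copy Psme2b) and Psme2b. Another gene overlapped 21 members, and for 9 of these it was a protein-coding gene on the opposite strand, as for Psmd1 (Htr2b), Psmb7 (Nek6), Psmc3 (Slc39a13), Psma4 (AY074887) and Psme1 (Emc9). The sources used here do not state whether counting used the strand, so reads of such pairs cannot be told apart with certainty.

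Other genes of the pathway were taken from lists by function. Of 9 further genes for proteins associated with the 19S particle, among them a ubiquitin receptor, deubiquitinases and a small subunit, 9 varied beyond counting noise. Of these, 1 was called variable: Uchl5, a deubiquitinase, with 38.6, 18.0, 37.9 and 14.8 TPM in replicates 1 to 4. It was high in replicates 1 and 3, as were Psma6 and Psma3. Adrm1, its anchor on the particle, averaged 54.3 ± 14.3 TPM, and Usp14, the other deubiquitinase, averaged 55.6 ± 16.8 TPM. The 4 genes that encode ubiquitin were the most abundant of the pathway, with a median of 923 TPM, and 0 of 4 were called variable. None of the 2 ubiquitin-activating enzymes, 7 shuttle proteins, 4 genes of the p97 segregase (Vcp averaged 181 ± 18.0 TPM) and 3 assembly and import factors outside the rule was called variable, and all of them varied beyond counting noise. These counts stand beside 33.0% of all genes tested, and 21.3% of those at 10 TPM or more, that were called variable, and 88.6% of all genes tested that varied beyond counting noise. In the list of NRF1 and its partners, 1 of 6 was called variable: the relative Nfe2l2, which encodes the stress factor NRF2, with 286, 597, 365 and 485 TPM. Nfe2l1 was steady at 85.7 ± 4.85 TPM, and Nfe2l2 was lowest in replicate 1, where the 20S and 19S genes were highest.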

How the data were processed

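The authors deposited RSEM-style gene tables with expected counts and TPM per gene, with credibility interval bounds of TPM (a signal that is never negative), per the file headers, and a transcript table with the percent of the gene's expression in each isoform. A further transcript table of estimated counts and TPM was deposited from a separate quantification. Values refer to mm10 with GENCODE M21, per the deposited text lists; the aligner and counter, their versions and the handling of strand are not stated in any label or header used.

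Expected counts were rounded, rows that name no gene were left out (0.103% to 0.118% of counts), and libraries were scaled with edgeR 4.0.16 (TMM; R 4.3.3). Counting noise was the null of a chi-square test (3 degrees of freedom) on each of 12626 genes that averaged 10 counts or more, with Benjamini-Hochberg adjustment over all genes and a threshold of 0.05. A gene was called variable when its highest scaled count was also at least 2 times its lowest. This test covers counting error only, so deep genes pass it easily. Spread is the SD of log2(CPM + 1), which understates the spread of low genes. The chi-square test picked up known changes in counts simulated with counting error only, and most real genes varied beyond that. Ratios of TPM were tested by an exact sign-flip test, which was not simulated. Copies were found with BLAST 2.17.0, and promoter windows came from RefSeq. Alternatives were DESeq2 1.42.0 size factors, total counts, other filters, folds and pseudocounts, the other transcript table, the posterior mean TPM and fewer libraries.

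Every member is named. Values in each library are given for the highest and lowest member of each role, members called variable, catalytic subunits and members with a library far from the others. Psma3, Psma5 and a few other members given library by library beyond that were chosen after their values were seen. The members and lists were chosen with earlier results of these data known. Of the pathway lists, AI314180 (listed as Ecpas) and Paaf1 were not found by symbol.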

Additional observations from a re-analysis of the deposited data

Results flagged for a closer look

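Among the levels of 47 members, ratios and summed levels of role groups, 63 values in all, 4 had a library far from the other 3 by Dixon's criterion, which chance alone meets in about 1 of 20 groups. All 4 were member levels with replicate 1 highest. The gap to the nearest library was 0.938 of the whole range for Psmd3 (67.9, 37.7, 39.6 and 38.4 TPM in replicates 1 to 4), a lid subunit. It was 0.893 for the assembly factor Psmg1 (20.2, 7.82, 7.88 and 6.40 TPM) and 0.856 for the assembly factor Psmg3 (17.1, 7.90, 6.93 and 8.40 TPM). For the alpha subunit Psma7 it was 0.832 (134, 101, 102 and 96.1 TPM). These 4 of 47 levels are 8.51%, beside 8.85% of all 12626 genes tested. Replicate 1 also had the highest share of ribosomal RNA counts, 12.4%, against 3.43%, 4.70% and 7.28% in replicates 2, 3 and 4, and the highest summed level of cell division genes. Their part in these gaps was not tested.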

How the results depend on the processing

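The count of members beyond counting noise ran from 33 to 45 over all alternatives, and 44 to 46 members reached 1 TPM in every library. The shares of all genes beyond counting noise in the same alternatives are not given here. The range of 33 to 45 therefore does not set the members apart from other genes. The 3 catalytic log2 ratios moved by less than their SD under each alternative tried for them. Even so, the ratio of Psmb7 over Psmb10 changed sign without replicate 1 (-0.05) or replicate 3 (-0.05). The median deviation of each library was recomputed with DESeq2 size factors, total counts, other pseudocounts and the other transcript table, but not with fewer libraries. It moved by less than the SD over the library medians. That SD holds the difference between libraries itself, so the criterion is loose. On protein-coding transcripts only, chosen after seeing the data, the mean log2 ratio of Psmb5 over Psmb8 was -0.70 and lay above 0 in replicate 1. The 8 members called variable became 29 with a 1.5-fold range (58.2% of all genes tested) and 0 within replicates 3 and 4 (9.92%). They were between 2 and 8 when 1 library was left out, for which the share of all genes is not given here. Without replicate 1, Psma6, Psmb5, Psmd1, Psmg1, Psmg2 and Psmg3 lost the call, without replicate 2 Psma6, Psmd1 and Psme2b, and without replicate 4 Psma6. Scaling by total counts added Psmc6. The other transcript table added Psma3, Psmc6 and Psme3. Within replicates 3 and 4 the median spread was 0.13, beside 0.17 over all genes. The cause of these changes was not tested.

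Levels in TPM depended on what shares the scale. The median level over all members was 56.4 TPM in the other transcript table and 92.0 TPM when rescaled over nuclear protein-coding genes. For the role groups those medians were 83.9 and 140.4 TPM (20S alpha), 60.6 and 102 TPM (19S ATPase) and 47.5 and 77.0 TPM (19S non-ATPase). Of single levels, 28 moved by more than their SD in the other table and 26 on rescaling. No library scaling shifted the median gene by more than 0.06 log2 units. Depth limits Psma8, Psmb11 and Psmc3ip most, with mean counts of 42.3, 0 and 53 per library.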
